A study of Mus musculus with 8 samples.

Results

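The genes described here are 35 genes of glycolysis and of the response to low oxygen, out of 18605 genes in the deposited gene table. They were chosen by name, from a list that was written with earlier results of these data known, and all 35 were found in the table by symbol. Which comparison led to that choice was not recorded, so the counts, medians and tests of these genes are given as a description and support nothing. Of the 35 genes, 34 had enough counts to be tested, and Aldoc, with 2 to 10 estimated counts per library, did not.

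The libraries came from C3H10T1/2, an established mesenchymal cell line from embryos of the C3H mouse strain. Total RNA was sequenced from 4 groups of 2 libraries. Before induction these were non-target control cells (NC) and cells with lentiviral shRNA against Nap1l2 (KD-Nap1l2), and NC-7d and KD-Nap1l2-7d were the same kinds of cells 7 days into osteogenic medium. The cells were grown in DMEM with serum, and the induction medium was a high-glucose DMEM with dexamethasone, ascorbic acid and β-glycerol phosphate, so the medium and the time differ together between the groups before and after induction. The sources used here do not say which of the Nap1l2 shRNAs was used or whether the replicates were separate cultures, so p-values measure only the spread between these libraries, which may be technical.

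Glycolysis splits glucose into pyruvate in the cytosol and yields ATP without oxygen. When oxygen is plentiful, prolyl hydroxylases of the Egln family mark the hypoxia-inducible factors Hif1a and Epas1 for degradation. When oxygen is short the factors persist, bind DNA at hypoxia response elements and switch on the glucose transporter, most glycolytic enzymes, lactate dehydrogenase and genes for mitophagy, acid balance and vessel growth. In mesenchymal progenitors of bone, glycolysis is a known source of energy both before and during differentiation.

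The 8 libraries held 17420284 to 19427359 estimated counts each. Nap1l2 itself had 3 and 3 counts in the NC libraries, 2 and 7 in KD-Nap1l2, 15 and 5 in NC-7d and 7 and 13 in KD-Nap1l2-7d, so its RNA does not check the labels and the groups are named as labelled. Of the mesenchymal markers, Col1a1 and Vim were high, with at least 35783 and 49733 counts in every library, whereas Thy1 had 19 to 183. Ptprc, Epcam and Myod1 did not exceed 4 counts. Other markers of those cell types were higher, with 56 to 196 counts of the macrophage marker Cd68 and 27 to 150 of the epithelial marker Cdh1. The endothelial marker Tek had 10 to 102 counts. Of the osteoblast markers, Runx2 had at least 974 counts in each library, and Sp7 had at most 5.16, Alpl 10 and Bglap 22.5 counts. In bulk RNA, fewer cells of a type and less RNA per cell cannot be told apart.

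The library labelled KD-Nap1l2 replicate 2 stood apart from the other 7 in these genes. It held the highest level of 30 of the 34 tested genes, a count that was not made over all genes. It lay above both NC libraries in 31 of the 34, against 39.4% of all tested genes. The 35 genes together took 3.50% of all counts in that library and 0.971% in KD-Nap1l2 replicate 1, against 1.53% to 1.79% in NC, 0.705% to 0.758% in NC-7d and 0.981% to 1.14% in KD-Nap1l2-7d. Because KD-Nap1l2 has only 2 libraries, the data do not show which of them departs from the group. For the genes given by library below, the change over induction in KD-Nap1l2 cells is therefore given from 3 fits, with both libraries, without replicate 2 and without replicate 1. In NC cells the log2 changes of these genes were equal to 2 decimals in the fits without either library, and the adjusted p without replicate 2 is given where it fell on the other side of the threshold and for Pdk1.

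**Figure D1:**
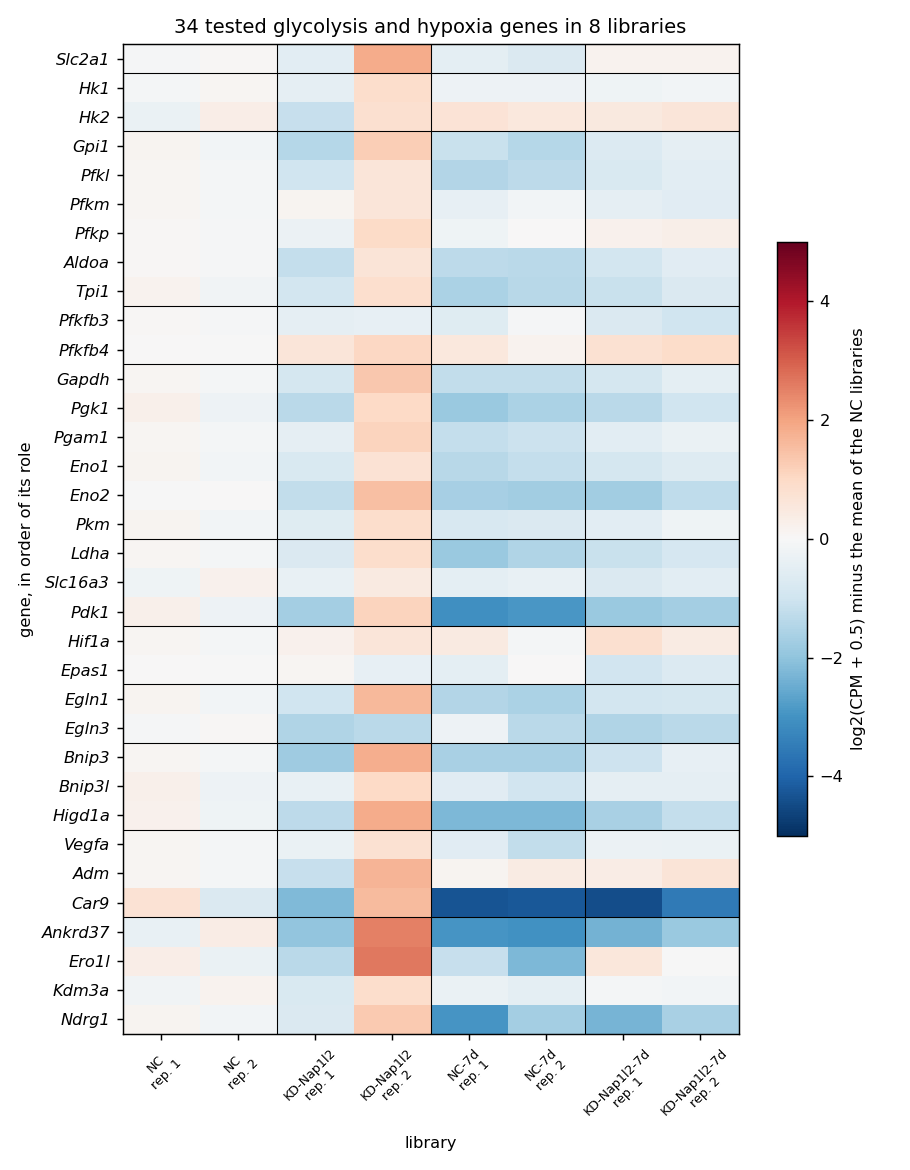
Heat map of the 34 tested genes (rows, in order of their role) in the 8 libraries (columns). Color gives log2(CPM + 0.5) minus the mean of the NC libraries, with red higher and blue lower; KD-Nap1l2 replicate 2 is red for nearly all genes, KD-Nap1l2 replicate 1 and the libraries after 7 days are mostly blue.

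The 250 bases upstream of the transcription start were taken from RefSeq (GRCm38.p6) for 32 of the 35 genes. Bnip3l, Epas1 and Ndrg1 had no entry. The core of the hypoxia response element was searched as ACGTG or GCGTG on both strands, with overlapping matches counted. Where a gene had several starts, only the most upstream one was used. At least 1 core stood in 25 of the 32 windows (78.1%), against 38.6% of all 27025 genes with a window and 55.1% of the 10651 tested genes with one. At least 3 cores stood in 7 of the 32 (21.9%), against 11.8% of the tested genes. The windows below belong to the genes with the largest mean change over both induction comparisons among those tested that had a window, and the cores are in capitals, reading CACGT or CACGC where the match is on the opposite strand.

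Car9, chr4:43506776-43507025, plus strand: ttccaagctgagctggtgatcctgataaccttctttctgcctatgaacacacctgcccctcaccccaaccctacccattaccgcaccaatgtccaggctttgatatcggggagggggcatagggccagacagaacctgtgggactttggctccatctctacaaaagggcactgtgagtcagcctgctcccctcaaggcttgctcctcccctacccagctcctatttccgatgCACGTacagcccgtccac
Ankrd37, chr8:45999851-46000100, minus strand: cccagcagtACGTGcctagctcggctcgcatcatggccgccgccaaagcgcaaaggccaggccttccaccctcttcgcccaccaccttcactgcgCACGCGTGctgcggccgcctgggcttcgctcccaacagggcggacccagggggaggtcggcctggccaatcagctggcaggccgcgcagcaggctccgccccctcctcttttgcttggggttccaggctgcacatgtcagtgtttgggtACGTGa
Pdk1, chr2:71872974-71873223, plus strand: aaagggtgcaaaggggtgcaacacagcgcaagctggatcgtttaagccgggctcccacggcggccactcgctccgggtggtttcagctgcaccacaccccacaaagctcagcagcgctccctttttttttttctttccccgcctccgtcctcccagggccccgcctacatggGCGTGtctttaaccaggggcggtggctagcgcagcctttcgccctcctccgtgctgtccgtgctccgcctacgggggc
Higd1a, chr9:121857797-121858046, minus strand: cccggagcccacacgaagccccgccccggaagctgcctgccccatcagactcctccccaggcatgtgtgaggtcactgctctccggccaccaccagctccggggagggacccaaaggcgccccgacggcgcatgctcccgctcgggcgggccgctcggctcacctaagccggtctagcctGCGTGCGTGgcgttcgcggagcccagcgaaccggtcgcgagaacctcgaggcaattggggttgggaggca

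These windows held 1 core in Car9, 4 in Ankrd37, 1 in Pdk1 and 2 in Higd1a. The core of Car9 began 18 bases before the start, and that of Pdk1 78 bases before it. A match is a run of letters and does not show that a factor binds there. The levels of Car9 and Pdk1 in each library are given with their roles below, and those of Ankrd37 and Higd1a are not given by library.

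Levels between genes are compared in FPKM, which divides by transcript length. Gapdh was the most abundant of the 35 genes, with a mean of 2659 FPKM over the 8 libraries and a range from 1250 to 7327. Aldoa (756 FPKM), Pkm (631), Eno1 (627), Pgk1 (509), Pgam1 (400.1), Ldha (379) and Tpi1 (323) came next, all of them glycolytic enzymes apart from Ldha, which makes lactate. The ranges of these genes over the libraries overlapped, so their order does not hold in each library. At the other end, Slc16a3 had a mean of 0.561 FPKM, Egln3 0.125 and Aldoc 0.104. The widest range of a tested gene with counts in every library was that of Ankrd37, 149-fold from 0.310 to 46.2 FPKM. Its lowest value rests on 8 counts, so the size of this range is uncertain. The next widest were those of Car9, 72.2-fold, and Ero1l, 28.4-fold. The narrowest was that of Hif1a, 1.88-fold.

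Below, the level of a gene in a library is its CPM, the count scaled to library size with TMM factors. Slc2a1 encodes the glucose transporter GLUT1. It was at 77.1 and 85.9 CPM in NC, 55.7 and 297 in KD-Nap1l2, 58.0 and 49.6 in NC-7d and 92.9 and 92.3 in KD-Nap1l2-7d. The NC-7d libraries lay below both NC libraries, KD-Nap1l2-7d lay above NC-7d, and the KD-Nap1l2 libraries lay on either side of all others except NC-7d replicate 2. The log2 change was -0.60 (SE 0.60) from NC to NC-7d and -0.93 (SE 0.59) from KD-Nap1l2 to KD-Nap1l2-7d, with adjusted p of 0.585 and 0.323 by edgeR's quasi-likelihood test. Without KD-Nap1l2 replicate 2 these became -0.60 with adjusted p 0.0255 and 0.73 with adjusted p 0.0331. Without replicate 1 the change in KD-Nap1l2 cells was -1.68 (adjusted p = 0.0021 by edgeR).

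Hexokinases trap glucose in the cell as glucose 6-phosphate. Hk1, the more abundant hexokinase, was at 379.8 and 430.3 CPM in NC, 295 and 738 in KD-Nap1l2, 342 and 335 in NC-7d and 344 and 369 in KD-Nap1l2-7d. The libraries after induction were close to each other and just below NC. Hk2, the inducible hexokinase, ranged from 16.0 CPM in KD-Nap1l2 replicate 1 to 63.8 in replicate 2 and was one of 3 members that were higher in both NC-7d libraries than in NC. The log2 change of Hk1 was -0.26 (SE 0.35) in NC and -0.53 (SE 0.35) in KD-Nap1l2 cells, and neither passed the test. In KD-Nap1l2 cells it turned to 0.28 (adjusted p = 0.296 by edgeR) without replicate 2 and was -1.05 (adjusted p = 0.0075) without replicate 1.

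The upper steps convert glucose 6-phosphate to triose phosphates, through the isomerase Gpi1, the phosphofructokinases Pfkl, Pfkm and Pfkp, the aldolases and Tpi1. Aldoa was at 1579 and 1448 CPM in NC, 665 and 2374 in KD-Nap1l2, 609.7 and 592 in NC-7d and 798 and 1013 in KD-Nap1l2-7d. Both NC-7d libraries lay below NC, at a log2 change of -1.33 (SE 0.48; adjusted p = 0.140 by edgeR, and 0.0046 without KD-Nap1l2 replicate 2). In KD-Nap1l2 cells the change of Aldoa was -0.75 (SE 0.48, adjusted p = 0.322 by edgeR), and it was 0.45 (adjusted p = 0.188) without replicate 2 and -1.39 (adjusted p = 0.0060) without replicate 1. Pfkm, the muscle-type phosphofructokinase (chr15:98092589-98132447), was at 101 and 87.6 CPM in NC, 105 and 144 in KD-Nap1l2, 70.5 and 85.6 in NC-7d and 68.3 and 64.4 in KD-Nap1l2-7d. It was one of the few members whose KD-Nap1l2 libraries were 1.38-fold apart or closer, and both lay above both KD-Nap1l2-7d libraries. Its fall in KD-Nap1l2 cells was 0.91 on the log2 scale (SE 0.18, adjusted p = 0.0180 by edgeR), and it was -0.66 (adjusted p = 0.0545) without replicate 2 and -1.12 (adjusted p = 0.0083) without replicate 1. In NC cells the change of Pfkm was -0.28 (SE 0.18). Gpi1, Pfkl and Tpi1 also had both NC-7d libraries below both NC libraries, while Pfkp overlapped.

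Pfkfb3 and Pfkfb4 set the level of fructose 2,6-bisphosphate, which activates phosphofructokinase. Pfkfb3 was at 21.4 and 19.9 CPM in NC, 15.1 and 15.5 in KD-Nap1l2, 13.3 and 19.9 in NC-7d and 12.4 and 10.1 in KD-Nap1l2-7d. Here the KD-Nap1l2 libraries did not stand apart from each other, and the cells with shRNA lay below the control cells both before and after induction. The log2 changes over induction were -0.31 (SE 0.21) in NC and -0.45 (SE 0.22) in KD-Nap1l2 cells, and neither passed the test. The latter was -0.43 without replicate 2 and -0.46 without replicate 1. Pfkfb4 ranged from 5.33 to 11.7 CPM, and both KD-Nap1l2 libraries lay above both NC libraries.

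The lower steps, from glyceraldehyde 3-phosphate to pyruvate, yield the NADH and ATP of glycolysis. Gapdh, often used as a reference gene, was at 4218 and 3597 CPM in NC, 2117 and 9995 in KD-Nap1l2, 1675 and 1671 in NC-7d and 2136 and 2798 in KD-Nap1l2-7d. Its share of all counts was 0.957% in KD-Nap1l2 replicate 2 and 0.164% to 0.418% in the other 7 libraries. The log2 change from NC to NC-7d was -1.22 (SE 0.57; adjusted p = 0.238 by edgeR, and 0.0085 without KD-Nap1l2 replicate 2). In KD-Nap1l2 cells it was -1.30 (SE 0.58; adjusted p = 0.170), 0.22 (adjusted p = 0.551) without replicate 2 and -2.02 (adjusted p = 0.0031) without replicate 1. Pgk1, Pgam1, Eno1, Eno2 and Pkm likewise had both NC-7d libraries below both NC libraries, and all had their highest level in KD-Nap1l2 replicate 2. The counts of Gapdh, Aldoa and Eno1 were not whole numbers in any library, which means that reads were divided between them and similar sequences. The same held for Car9, Epas1, Pfkfb3, Pfkfb4, Pfkp and Vegfa, and Gpi1, Pdk1, Pfkl and Pfkm had whole counts in only 1 library each. Levels of such genes are less certain. Of the 35 genes, 18 had whole counts in every library.

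Ldha turns pyruvate into lactate, Slc16a3 exports lactate, and Pdk1 is a kinase that shuts the pyruvate dehydrogenase complex and keeps pyruvate out of the mitochondria. Ldha was at 867 and 759.6 CPM in NC, 485 and 1486 in KD-Nap1l2, 227 and 286 in NC-7d and 371 and 457 in KD-Nap1l2-7d. The groups after induction lay below both groups before it, including KD-Nap1l2 replicate 1. The log2 change was -1.67 (SE 0.44; adjusted p = 0.0602 by edgeR) in NC and -1.25 (SE 0.44; adjusted p = 0.0956) in KD-Nap1l2 cells, and without KD-Nap1l2 replicate 2 it was -1.67 (adjusted p = 0.0036) and -0.23 (adjusted p = 0.540). Without replicate 1 the change in KD-Nap1l2 cells was -1.84 (adjusted p = 0.0041 by edgeR). Pdk1 (chr2:71873215-71903858) was at 139 and 99.6 CPM in NC, 35.6 and 253 in KD-Nap1l2, 13.7 and 15.3 in NC-7d and 32.0 and 35.8 in KD-Nap1l2-7d. It fell by 3.04 on the log2 scale from NC to NC-7d (SE 0.75, adjusted p = 0.0481 by edgeR, and 0.0007 without KD-Nap1l2 replicate 2), an 8.21-fold lower level. The level of KD-Nap1l2 replicate 1 lay between those of the KD-Nap1l2-7d libraries, so the log2 change of -2.09 (SE 0.72, adjusted p = 0.0901) in KD-Nap1l2 cells became -0.069 without replicate 2 and -2.90 (adjusted p = 0.0015) without replicate 1. Slc16a3 had only 15 to 44 counts per library.

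The factors themselves varied less than most of the 35 genes. Hif1a, the oxygen-regulated subunit that acts on most glycolytic genes, was at 228 and 199.7 CPM in NC, 249 and 324 in KD-Nap1l2, 294 and 201 in NC-7d and 375 and 287 in KD-Nap1l2-7d. Both libraries of each group with shRNA lay above both NC libraries, while NC and NC-7d overlapped. Its log2 changes over induction were 0.21 (SE 0.23) in NC and 0.21 (SE 0.23) in KD-Nap1l2 cells, and neither passed the test; without NC-7d replicate 1 the first was -0.088. The change in KD-Nap1l2 cells was 0.41 without replicate 2 and 0.030 without replicate 1. Epas1, which encodes HIF-2α, ranged from 61.5 to 127 CPM and was the 1 tested member that was lower in KD-Nap1l2 replicate 2 than in replicate 1. Hif1a is regulated mainly through the stability of its protein, which RNA does not measure.

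Egln1 and Egln3 encode prolyl hydroxylases that mark the factors for degradation, and both genes are themselves targets of the factors. Egln1 was at 146 and 119 CPM in NC, 66.2 and 406 in KD-Nap1l2, 47.6 and 44.0 in NC-7d and 69.7 and 71.5 in KD-Nap1l2-7d. The NC-7d libraries were the lowest of the 8 and lay below NC at a log2 change of -1.53 (SE 0.65; adjusted p = 0.198 by edgeR, and 0.0020 without KD-Nap1l2 replicate 2). The change in KD-Nap1l2 cells was -1.74 (SE 0.65; adjusted p = 0.114), 0.093 without replicate 2 and -2.52 (adjusted p = 0.0012) without replicate 1. Egln3 was near the limit of detection, with 0 to 19 counts per library. The NC libraries held 16 and 19 counts and the KD-Nap1l2 libraries 0 and 1, a ratio of 33.1 with a 95% counting interval of 5.57 to 1346. This interval is an exact binomial one, covers counting error only and does not hold the spread between cultures. After induction the NC-7d libraries held 12 and 1 counts and the KD-Nap1l2-7d libraries 0 and 1, so these groups overlapped.

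Bnip3 and Bnip3l are receptors that direct mitochondria to autophagy, and Higd1a is a small protein of the inner mitochondrial membrane. Bnip3 was at 198 and 176 CPM in NC, 54.4 and 659.6 in KD-Nap1l2, 60.6 and 59.6 in NC-7d and 91.5 and 139.7 in KD-Nap1l2-7d. The KD-Nap1l2 libraries were the lowest and the highest of the 8. The log2 change was -1.64 (SE 0.86; adjusted p = 0.291 by edgeR, and 0.0055 without KD-Nap1l2 replicate 2) in NC. In KD-Nap1l2 cells it was -1.63 (SE 0.86; adjusted p = 0.237), 1.09 (adjusted p = 0.0469) without replicate 2 and -2.51 (adjusted p = 0.0027) without replicate 1. Bnip3l and Higd1a also had both NC-7d libraries below both NC libraries.

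Among the secreted, surface and pH genes, Vegfa encodes a vessel growth factor, Adm the peptide adrenomedullin, and Car9 a cell-surface carbonic anhydrase that is widely used as a marker of hypoxia. Vegfa was at 192 and 168 CPM in NC, 142 and 308 in KD-Nap1l2, 122 and 76.8 in NC-7d and 148 and 142 in KD-Nap1l2-7d, with log2 changes of -0.85 (SE 0.35) in NC and -0.63 (SE 0.35) in KD-Nap1l2 cells that did not pass the test. In KD-Nap1l2 cells the change of Vegfa was 0.035 without replicate 2 and -1.09 (adjusted p = 0.0331 by edgeR) without replicate 1. Car9 was at 112 and 41.3 CPM in NC, 14.3 and 204 in KD-Nap1l2, 2.93 and 3.10 in NC-7d and 2.64 and 5.44 in KD-Nap1l2-7d. All 4 libraries after induction lay below all 4 before it, with 14.3 CPM the lowest before and 5.44 CPM the highest after. In KD-Nap1l2 cells Car9 fell by 4.76 on the log2 scale (SE 1.17, adjusted p = 0.0344 by edgeR), a 27.0-fold lower level. Without replicate 2 this change was -1.83 (adjusted p = 0.113), and without replicate 1 it was -5.66 (adjusted p = 0.0037). In NC cells the change was -4.66 (SE 1.18, adjusted p = 0.0523), and the adjusted p was 0.0054 without KD-Nap1l2 replicate 2. Adm was another member that was higher in both NC-7d libraries than in NC.

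The other targets were Ankrd37, Ero1l (an oxidase of protein folding in the endoplasmic reticulum), the histone demethylase Kdm3a and Ndrg1, a stress-responsive gene. Ndrg1 (chr15:66929318-66969641) was at 962 and 811 CPM in NC, 531 and 2214 in KD-Nap1l2, 113 and 274 in NC-7d and 176 and 288 in KD-Nap1l2-7d. All 4 libraries after induction again lay below all 4 before it. In KD-Nap1l2 cells Ndrg1 fell by 2.57 on the log2 scale (SE 0.67, adjusted p = 0.0412 by edgeR), and without replicate 2 the change was -1.19 (adjusted p = 0.177), and -3.26 (adjusted p = 0.0094) without replicate 1. In NC cells it was -2.19 (SE 0.66, adjusted p = 0.0855), and the adjusted p was 0.0237 without KD-Nap1l2 replicate 2.

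**Figure D2:**
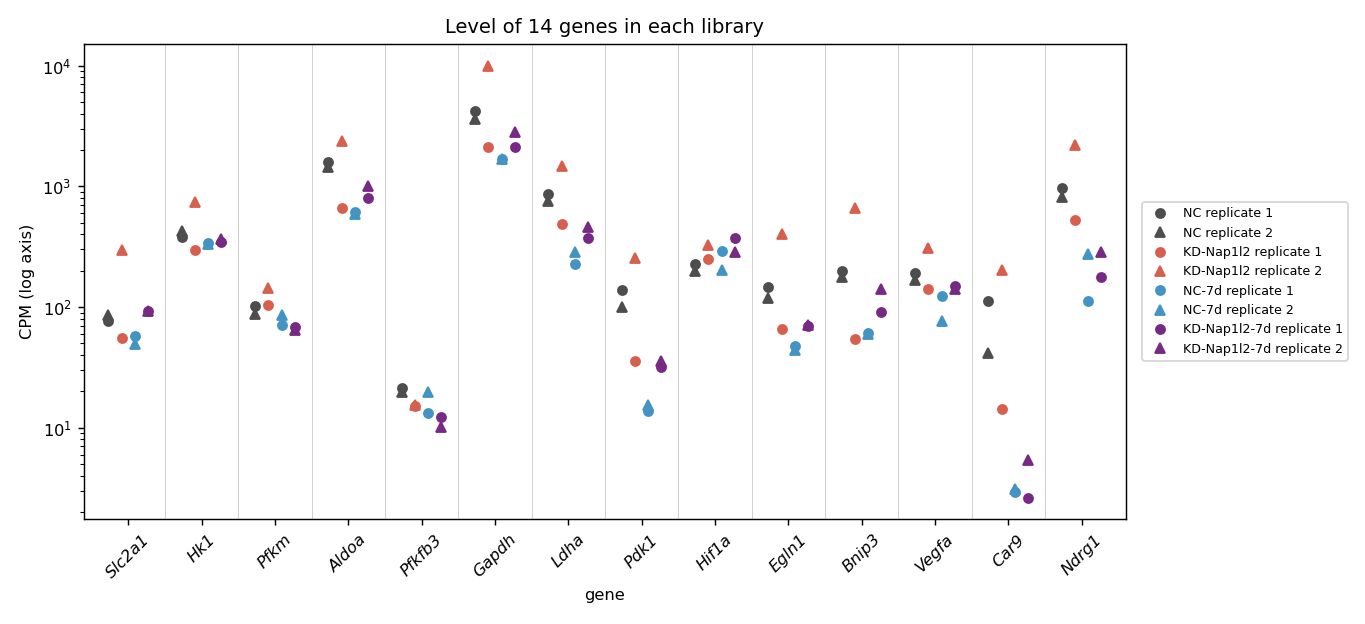
Level in CPM (log axis) of 14 genes in each of the 8 libraries, with circles for replicate 1 and triangles for replicate 2 and a color for each group. Car9 drops from 14.3 to 204 CPM before induction to 2.64 to 5.44 after it, and Hif1a stays between 199.7 and 375 CPM.

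Across the list, control cells after 7 days of osteogenic medium had lower levels of these genes. In the comparison of NC-7d with NC, 30 of the 34 tested genes had a log2 change below 0, with a median of -1.24 against -0.0035 over all genes tested. Both NC-7d libraries lay below both NC libraries for 27 of the 34, against 28.4% of all tested genes, and above them for 3 (Adm, Hk2 and Pfkfb4), against 29.4% of all tested genes. Only Pdk1 passed the test (adjusted p under 0.05 over all genes tested), where 3.38% of all genes were called lower. When KD-Nap1l2 replicate 2 was left out of the fit, 20 of the 34 were called lower and 0 higher, against 4.57% and 6.16% of all genes. The 20 genes were Aldoa, Ankrd37, Bnip3, Car9, Egln1, Eno1, Eno2, Ero1l, Gapdh, Gpi1, Higd1a, Ldha, Ndrg1, Pdk1, Pfkl, Pgam1, Pgk1, Pkm, Slc2a1 and Tpi1. The same 20 genes were called without KD-Nap1l2 replicate 1, against 4.6% of all genes called lower, and 17 of them in a fit of only the NC and NC-7d libraries, against 2.37%. The median change was -1.24 in each of these fits. All groups share 1 estimate of the spread of each gene, so the distance between the KD-Nap1l2 libraries enters the error of this comparison although neither library belongs to it. DESeq2 called 7 members lower, against 3.55% of all genes. Without any 1 of the other 6 libraries 0 members were called by edgeR. The share of all genes called lower was then 0.275% and 1.77% without an NC library, 1.81% and 2.85% without an NC-7d library and 1.62% without either KD-Nap1l2-7d library. In these fits 6 to 12 members had an unadjusted p under 0.05, against 13.8% to 22.1% of all genes. In the fit of all 8 libraries 15 members were under that p, against 24.5% of all genes.

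In KD-Nap1l2 cells the same comparison depended on which KD-Nap1l2 library was used. With both, 30 of the 34 genes had a log2 change below 0, with a median of -0.92 against -0.0070 over all genes tested, and Car9, Ndrg1 and Pfkm were called lower, where 7.36% of all genes were. Both KD-Nap1l2-7d libraries lay below both KD-Nap1l2 libraries for 9 of the 34 (Bnip3l, Car9, Eno2, Epas1, Ldha, Ndrg1, Pfkfb3, Pfkm and Slc16a3), against 30.6% of all tested genes, and above them for 0, against 30.8%. Without replicate 2 the median was 0.14, and 4 genes were called higher (Adm, Bnip3, Hk2 and Slc2a1) and Epas1 lower, against 4.51% and 4.02% of all genes. Without replicate 1 the median was -1.45, and 27 genes were called lower, against 8.58% of all genes. Adm, Bnip3 and Slc2a1 stood in both sets, but in opposite directions, lower without replicate 1 and higher without replicate 2. DESeq2 called 7 members, all lower, against 6.72% of all genes. By edgeR, leaving out either KD-Nap1l2-7d library left 0 members called, with 3 and 6 at an unadjusted p under 0.05, where 0.663% and 0.866% of all genes were called lower. Without either NC library 1 member was called (Pfkm), against 5.03% and 5% of all genes, and without either NC-7d library 4 were, against 8.48% and 8.4%.

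**Figure D3:**
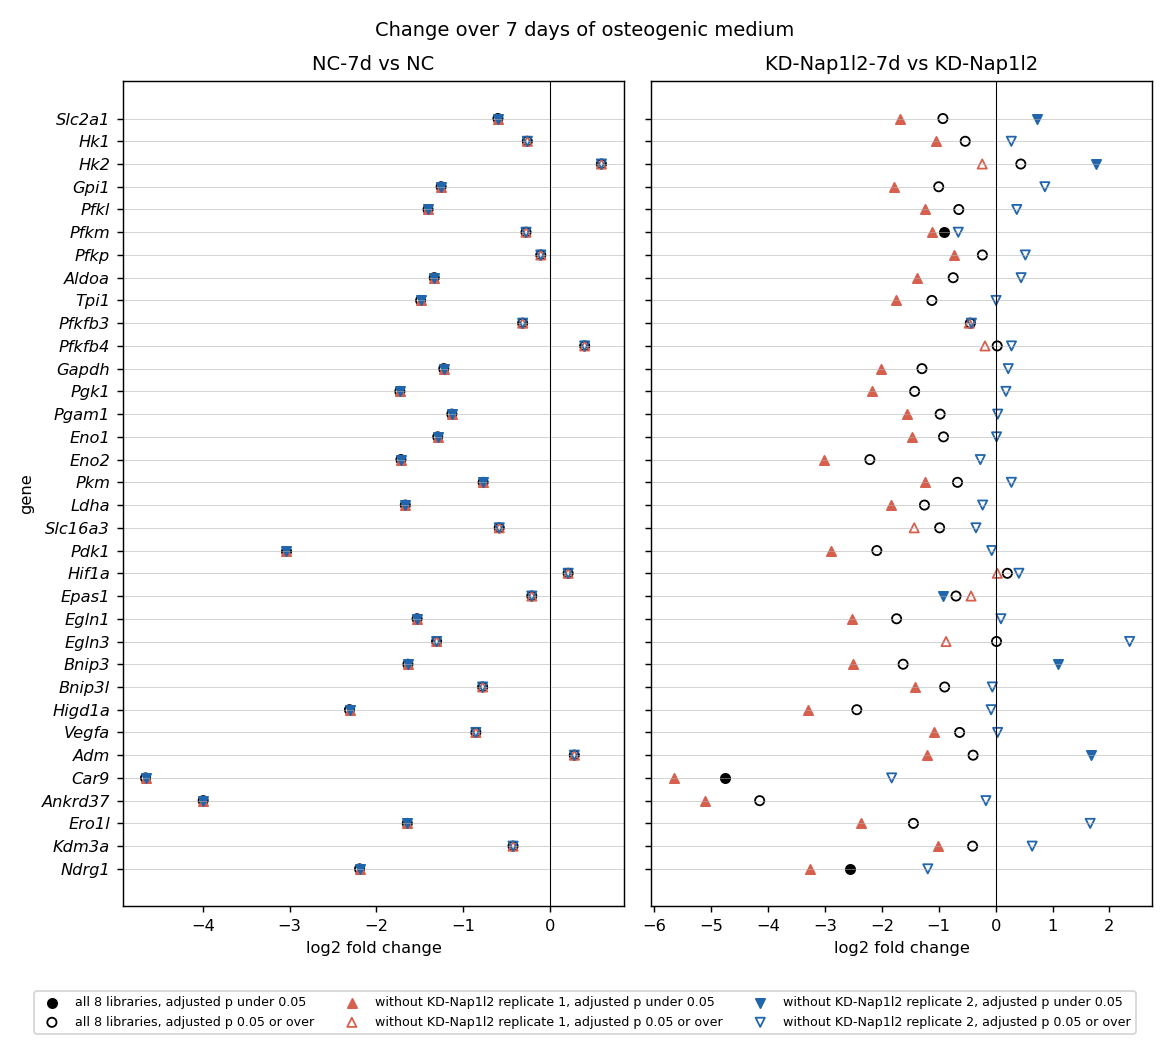
Log2 fold change over 7 days of induction (horizontal axis) of each tested gene in NC cells (left) and KD-Nap1l2 cells (right). Black circles are from the fit of all 8 libraries and triangles from fits without a KD-Nap1l2 library, filled where the adjusted p was under 0.05. In the left panel the 3 marks of each gene coincide; in the right panel the median moves from -1.45 without replicate 1 to 0.14 without replicate 2.

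By the ratio of CPM + 0.5, the KD-Nap1l2 libraries lay farthest apart in Ankrd37, Ero1l, Car9, Bnip3 and Higd1a and closest in Pfkfb3, Egln3, Hif1a, Pfkfb4, Pfkm and Epas1. Replicate 2 was higher than replicate 1 in 33 of the 34 genes, against 47.6% of all tested genes, and at least 2-fold higher in 27 of the 34, against 3.13%. It was at least 2-fold lower in 0, against 1.54%. The median ratio was 3.23. Ankrd37 was 22.8-fold higher, Ero1l 16.2-fold, Car9 13.8-fold, Bnip3 12.0-fold and Higd1a 9.12-fold. At the other end Pfkm was 1.38-fold, Pfkfb4 1.36-fold and Hif1a 1.30-fold higher, Pfkfb3 was 1.02-fold higher and Epas1 was 1.40-fold lower. In the other groups the replicates were closer. No member was 2-fold higher in replicate 2 of NC and 1 was 2-fold lower, against 0.631% and 1.19% of all genes. In NC-7d these counts were 1 and 2, against 2.18% and 2.36%. In KD-Nap1l2-7d they were 0 and 0, against 0.46% and 0.215%.

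**Figure D4:**
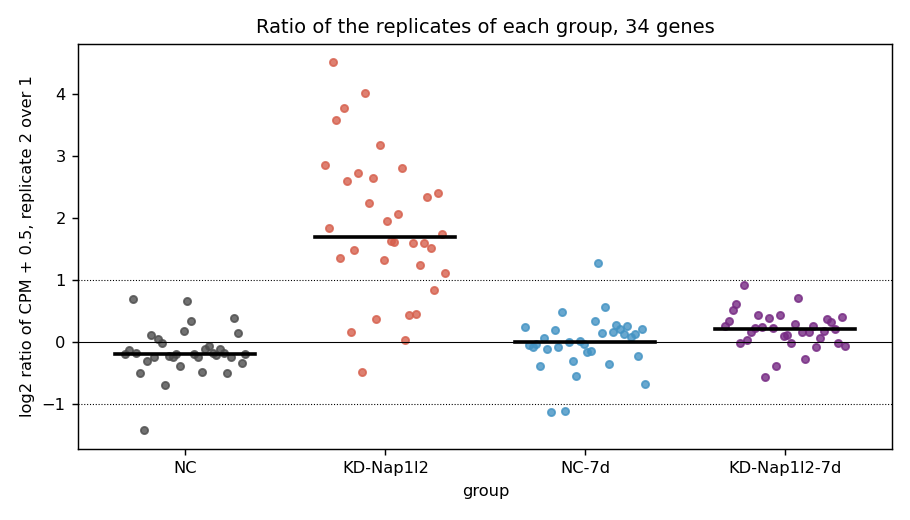
Log2 ratio of CPM + 0.5 in replicate 2 over replicate 1 (vertical axis) for the 34 tested genes in each group, with a bar at the median of each group and dotted lines at a 2-fold difference. The KD-Nap1l2 points center on a 3.23-fold ratio and those of the other groups lie around a ratio of 1.

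Other lists moved between the KD-Nap1l2 libraries as well. Of 39 tested further targets of the hypoxia-inducible factors, 33 were higher in replicate 2 and 16 at least 2-fold higher, whereas of 20 tested genes of the tricarboxylic acid cycle 6 were higher and 0 at least 2-fold. All 10 interferon-stimulated genes were lower in replicate 2, 9 of them at least 2-fold, and their summed level was 815 CPM there and 2106 CPM in replicate 1. That sum also differed between replicates of NC-7d, at 6389 and 1288 CPM. The sum of 10 cell cycle genes was 1308 CPM in KD-Nap1l2 replicate 2 and 1416 CPM in replicate 1. The part of these differences in the levels of the glycolysis and hypoxia genes was not tested.

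Before induction, the comparison of KD-Nap1l2 with NC called 0 of the 34 genes by edgeR and by DESeq2, where 0.0817% and 2.44% of all genes were called. At an unadjusted p under 0.05 there were 2, against 13.7% of all genes. These were Egln3, with a log2 change of -4.74 (SE 1.32, adjusted p = 0.178) at the low counts given above, and Pfkfb4, with 0.88 (SE 0.24, adjusted p = 0.171). The median of the 34 genes was 0.41 against 0.011 over all genes tested. Hif1a, Pfkfb4 and Pfkm were higher in both KD-Nap1l2 libraries than in both NC libraries, against 22% of all tested genes, and Egln3 and Pfkfb3 were lower, against 21.2%. The other 29 genes overlapped. Taken alone, KD-Nap1l2 replicate 1 lay below both NC libraries in 30 of the 34 genes, against 35% of all tested genes, and replicate 2 lay above both in 31, against 39.4%. Without replicate 2 the median was -0.83 and 0 genes were called, with 25 at an unadjusted p under 0.05, against 10% of all genes. Without replicate 1 it was 0.96 and 15 genes were called higher, against 2.82% of all genes.

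After 7 days the libraries with shRNA had somewhat higher levels than the control libraries, in a comparison that holds neither KD-Nap1l2 library. Of the 34 genes, 28 had a log2 change above 0 in KD-Nap1l2-7d against NC-7d, with a median of 0.52 against -0.0056 over all genes tested. Both KD-Nap1l2-7d libraries lay above both NC-7d libraries for 23 of the 34, against 21% of all tested genes, and below them for 4 (Epas1, Pfkfb3, Pfkm and Slc16a3), against 21%. By edgeR 0 of the 34 passed the test, as did 0% of all 13470 genes, and DESeq2 called 0 of these genes and 0.42% of all genes. At an unadjusted p under 0.05 there were 2 members, against 7.85% of all genes. These were Epas1, with a log2 change of -0.62 (SE 0.21, adjusted p = 0.550), and Pfkfb3, with -0.56 (SE 0.22, adjusted p = 0.578). Without KD-Nap1l2 replicate 2 the median was 0.53, with 0 genes called and 22 at an unadjusted p under 0.05, against 10.3% of all genes. The median ranged from 0.35 to 0.62 when each library was left out in turn.

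The test of the difference between the 2 induction responses called 0 of the 34 genes by edgeR and by DESeq2, against 0% and 0.539% of all genes, and 1 at an unadjusted p under 0.05, against 7.04%. This was Pfkm, whose change in KD-Nap1l2 cells minus that in NC cells was -0.63 on the log2 scale (SE 0.26, adjusted p = 0.685). The median difference was -0.083 with all libraries, 1.36 without KD-Nap1l2 replicate 2 and -0.60 without replicate 1, with 0 genes called in each. The responses share no library, and their difference turned direction with the choice of the KD-Nap1l2 library. It also turned with the method, since limma on log2 FPKM with all libraries gave medians of 0.26 and 0.29 at pseudocounts of 1 and 0.1.

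Other genes of the pathways came from lists of further glycolysis, pyruvate, tricarboxylic acid cycle, pentose phosphate, glycogen and hypoxia genes. For all tested genes, 4.83% were called higher and 3.38% lower from NC to NC-7d, and 6.84% and 7.36% in KD-Nap1l2 cells. Of 21 tested other glycolysis genes, 2 were called higher from NC to NC-7d, Galm and Ldhb, and 0 lower, with a list median of 0.16. Galm, which interconverts the forms of glucose, was also called higher in KD-Nap1l2 cells, at 2.95-fold (adjusted p = 0.0038 by edgeR). Of 13 genes for the entry of pyruvate into mitochondria, Pdk4 rose 8.49-fold in NC (adjusted p = 0.0014) and 8.59-fold in KD-Nap1l2 cells (adjusted p = 0.0008), and 0 and 1 (Pdk3) were called lower. Pdk4 encodes a kinase of the same complex as Pdk1, and Pdk1 and Pdk4 moved in opposite directions over induction in NC cells.

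Of 10 pentose phosphate genes, which branch from glucose 6-phosphate and yield NADPH, 3 were called higher in NC (H6pd, Pgd and G6pdx), 4 in KD-Nap1l2 cells (the same 3 and Prps1), and 0 lower. G6pdx, the entry enzyme of this pathway, rose 2.22-fold in NC (adjusted p = 0.0100) and 1.97-fold in KD-Nap1l2 cells (adjusted p = 0.0130 by edgeR). Of 20 tricarboxylic acid cycle genes 0 were called in either comparison, with medians of -0.083 and -0.029. Of 11 tested glycogen genes, Ppp1r3d was called lower in both.

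Of the 39 tested further targets of the hypoxia-inducible factors, 6 were called lower from NC to NC-7d (Stc1, Ak4, P4ha1, Tet1, Narf and Fut11) and 1 higher (Rab20), with a median of -0.35. In KD-Nap1l2 cells 4 were called lower (Stc1, Tet1, Fut11 and Pam) and 4 higher (Rab20, Flt1, Selenbp1 and Angptl4), with a median of -0.70. Stc1, the hormone stanniocalcin, fell 17.7-fold in NC (adjusted p = 0.0019) and 15.6-fold in KD-Nap1l2 cells (adjusted p = 0.0017 by edgeR). Of 15 regulators of the factors, Hif3a was called higher in both comparisons and Arnt2 lower in NC cells. Hif3a, a member of the factor family whose short forms inhibit Hif1a, was at 0.594 and 0.871 CPM in NC, 0.107 and 0.285 in KD-Nap1l2, 41.2 and 36.6 in NC-7d and 40.8 and 38.6 in KD-Nap1l2-7d. It rose by 5.71 on the log2 scale in NC (SE 0.26, adjusted p = 6.8e-05 by edgeR), and the KD-Nap1l2 libraries before induction held too few counts for a fold.

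Markers of other cell types moved over the same 7 days. The summed level of 6 adipocyte markers was 39.8 to 40.3 CPM in NC, 42.9 to 56.7 in KD-Nap1l2, 146 to 185 in NC-7d and 148 to 192 in KD-Nap1l2-7d. Most of this sum was Fabp4 and Pparg, at 103 and 80.6 CPM in NC-7d replicate 1. Of the 3 markers that were tested, these were called higher in both comparisons. Adipoq, the other tested marker, had a log2 change below 0 in both, at 1 to 18 counts per library. Plin1 and Lep had 0 to 2 counts per library and Cfd 0 to 8. Of 8 mesenchymal markers 1 was called lower in NC (Thy1) and 5 in KD-Nap1l2 cells (Thy1, Col1a1, Col1a2, Prrx1 and Twist1). Cdh1, the 1 tested epithelial marker, was called lower in both, and the endothelial marker Tek and the osteoblast marker Runx2 were called lower in KD-Nap1l2 cells. In those cells 1 of the 2 tested osteoblast markers and 1 of the 3 tested endothelial markers had a log2 change above 0. Of 10 cell cycle genes 0 were called in NC and 3 lower in KD-Nap1l2 cells (Mki67, Top2a and Bub1). Their summed level was 1003 and 1192 CPM in NC and 549 and 1123 in NC-7d, so the NC-7d libraries lay far apart. It was 1416 and 1308 CPM in KD-Nap1l2 and 655 and 663 in KD-Nap1l2-7d. The part of these changes in the levels of the glycolysis and hypoxia genes was not tested.

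The transcript table allowed 1 more view of these genes. Pkm makes the M1 and M2 forms of pyruvate kinase through a choice between neighbouring exons, and M2 is the usual form in proliferating cells. The RefSeq M2 transcript took 67.4% ± 0.084 (SD, n = 2) of the Pkm counts in NC, 66.7% ± 0.74 in KD-Nap1l2, 70.0% ± 3.2 in NC-7d and 67.2% ± 4.7 in KD-Nap1l2-7d. The means thus lay between 66.7% and 70.0%, while the level of Pkm itself ran from 939.7 to 3049 CPM. The RefSeq M1 transcript was at 0 in 6 of the 8 libraries and at 2.29% at most, and the other transcripts of the table are predicted models whose form was not determined.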

How the data were processed

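RNA-seq libraries of C3H10T1/2 cells were analysed as 4 groups of 2, grouped by the labels. The deposited tables hold estimated counts per gene and per transcript, which the authors obtained with RSEM, and FPKM, the same counts divided by transcript length and library depth; per the labels BWA, Bowtie2, RSEM and GRCm38.p6 were used, with versions not given in the sources used here. The FPKM unit was read from the values and the column names. Of all genes, 41.1% had a count that was not whole, and counts were rounded. The authors' means per group (8 columns) were not used.

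Genes were filtered with filterByExpr, leaving 13470 of 18605, and fitted with edgeR 4.0.16 (TMM, quasi-likelihood test, group as the only term, all 8 libraries) under R 4.3.3. The Benjamini-Hochberg adjustment of p covered each of the genes tested, at a threshold of 0.05, and SE was taken as the log2 change over the root of F. Ratios of CPM and log2 CPM used an offset of 0.5. The scripts were tested on simulated data. Alternatives were DESeq2 1.42.0, other size factors and filters, only the 4 libraries compared, a replicate block, limma 3.58.1 on log2 FPKM with a pseudocount of 1 or 0.1, and each library left out. The members, the related lists and the markers were chosen with earlier results of these data known. Values in every library were given for members called in any comparison and for the member of each role with the highest mean FPKM, and the other members by ranges and counts. Related genes were named where called, with a mean count of at least 50.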

Additional observations from a re-analysis of the deposited data

How the results depend on the processing

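With each library left out in turn, the number of members called ranged from 0 to 15 for KD-Nap1l2 against NC, from 0 to 20 for NC-7d against NC and from 0 to 27 for KD-Nap1l2-7d against KD-Nap1l2, and it was 0 throughout for KD-Nap1l2-7d against NC-7d and for the difference of the responses. The member medians ranged from -0.83 to 0.96 for KD-Nap1l2 against NC, from 0.35 to 0.62 for KD-Nap1l2-7d against NC-7d, from -1.27 to -1.12 for NC-7d against NC, from -1.45 to 0.14 for KD-Nap1l2-7d against KD-Nap1l2 and from -0.60 to 1.36 for the difference. The number of all genes called ranged from 0 to 562, from 0 to 1, from 122 to 1490, from 305 to 2218 and from 0 to 19 in the same order. In KD-Nap1l2-7d against KD-Nap1l2 the direction turned without KD-Nap1l2 replicate 2 for 18 of the 34 members, all upward. Among the members given by library these were Aldoa (-1.39 to 0.45 over the libraries left out), Bnip3 (-2.51 to 1.09), Egln1 (-2.52 to 0.093), Gapdh (-2.02 to 0.22), Hk1 (-1.05 to 0.28), Slc2a1 (-1.68 to 0.73) and Vegfa (-1.09 to 0.035). Without KD-Nap1l2 replicate 1 it turned for 3 (Egln3, Hk2 and Pfkfb4). In NC-7d against NC it turned for 0 members without either KD-Nap1l2 library. Without NC-7d replicate 1 it turned for Hif1a (-0.088 to 0.46). In that fit 5 of 35 members lay above 0, against 4 of 34 with all libraries, so Hif1a was not the only one that turned. A lone library was assumed to vary like the other groups.

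Among other settings, DESeq2 called 453 genes for KD-Nap1l2 against NC, 78 for KD-Nap1l2-7d against NC-7d and 100 for the difference, and 7 members in each induction comparison, where 3.55% and 6.72% of all genes were called lower. Without a filter on low counts 160 genes were called for KD-Nap1l2 against NC, 1 for the difference, and 5 members in NC and 6 in KD-Nap1l2 cells, against 3.02% and 5.84% of all genes called lower. At least 10 counts in every library left 4 genes called for KD-Nap1l2 against NC. With only the 4 libraries compared that number was 0, and 17 members were called in NC and 1 in KD-Nap1l2 cells, against 2.37% and 7.33%. By limma on log2(FPKM + 1) these were 33 genes, 0 and 1 members, against 3.22% and 6.08%, and with a pseudocount of 0.1 they were 18 genes, 3 and 1 members, against 3.38% and 6.4%. The member medians by limma at these pseudocounts were 0.15 and 0.14 for KD-Nap1l2 against NC, where edgeR gave 0.41. For the difference they were 0.26 and 0.29, where edgeR gave -0.083. With a replicate block 4 genes were called for KD-Nap1l2 against NC, 1 member in NC (Ndrg1 in place of Pdk1) and 2 in KD-Nap1l2 cells (Ndrg1 and Pfkm), against 2.91% and 6.83% of all genes called lower, and the median of the difference was 0.15. The deviations of same-numbered libraries from the group means correlated at -0.09 to 0.12. With 2 libraries a group these values cannot decide whether such libraries share more than a number, and this was not tested further. As shares of FPKM, the M2 transcript of Pkm stood at 65.0% in NC and 64.2% in KD-Nap1l2. For the 33 results on single members, 449 alternative values kept their direction and side of the threshold, 40 newly passed it, 28 no longer did and 8 turned direction. The cause of these shifts was not tested. Depth limits Egln3, Slc16a3, Aldoc and the lowest levels of Ankrd37 (8 counts), and 2 libraries a group limit every call.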
